A study of Mus musculus with 171 samples.

Results

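The epiblast (EPI) cells of mouse embryos at E3.75 (E is the embryonic day) were compared between embryos that lack Stat3 and wild-type embryos. They were the cells whose titles give E3.75 and the lineage EPI, 28 of the 171 cells and 7 of the 17 embryos in the series. The Stat3 -/- group (MUT) held 9 cells of 4 embryos, with 2 cells of MUT 1, 1 cell of MUT 2, 3 cells of MUT 4 and 3 cells of MUT 5. The Stat3 +/+ group (WT) held 19 cells of 3 embryos, with 4 cells of WT 1, 8 cells of WT 2 and 7 cells of WT 3. The titles give E3.75 for these cells, whereas their source label names ICM of E3.5. Single cells were profiled by RNA sequencing, and counts per gene were summed over the cells of an embryo, which is the replicate here. Values are normalised read counts (CPM, the count as a share of an embryo's sum), scaled by the trimmed mean of M-values (TMM), unless a cell is named. The strain, the part of Stat3 that is deleted, how the cells were chosen and how the RNA was amplified are left unsaid by the labels. The same holds for the litters: nothing says whether embryos of a group came from separate mothers, so the p-values measure the spread between these embryos.

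STAT3 is a transcription factor that waits in the cytoplasm until a cytokine receptor calls on it. LIF and other cytokines of its family bind receptors that share the chain encoded by Il6st (gp130), JAK kinases then phosphorylate STAT3, and STAT3 dimers enter the nucleus and bind DNA. Its targets include Socs3, whose product shuts the receptor down, and factors such as Tfcp2l1 and Klf4 that keep mouse embryonic stem cells in the naive state. The epiblast is the lineage of the blastocyst that forms the fetus, and it is the counterpart of those stem cells in the embryo.

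The libraries were deep and alike in depth. The 28 cells held a median total count per embryo of 10351004 to 11201876 in MUT and of 10496103.5 to 11269527 in WT, and none of 4 quality values differed between the groups past the threshold (exact permutation test over 35 splits of the embryos, two-sided, adjusted p 0.57 to 0.83). With 35 splits no p can fall under 0.0286, so 1 differing value alone could not have passed after adjustment over the 4. Embryo medians of genes detected per cell were 10557 to 11542 in MUT and 11526.5 to 11791.5 in WT. The sums differed in size, however: 11399 to 14197 genes were detected in the MUT sums of 1 to 3 cells and 15125 to 17406 in the WT sums of 4 to 8 cells. Sex and the letter in the title also ran with genotype. By Y-linked and Xist counts, all 4 MUT embryos were male, whereas WT 1 and WT 2 were female and WT 3 was male. MUT 1 and 2 carry letter B, WT 1 and 2 carry letter C, and MUT 4, MUT 5 and WT 3 carry letter A, whose meaning is not given. For letters B and C the letter and the genotype cannot be told apart, so the comparison of MUT 4 and 5 with WT 3, all male and of letter A, is given beside the results as a value with no test. Its log2 ratios are of mean CPM + 1, whereas log2 fold changes over all embryos are those of the edgeR fit. Across the 6703 genes with a mean of at least 20 CPM in 1 group, Spearman's rho between 2 sums was 0.599 to 0.794 within MUT and 0.845 to 0.903 within WT. MUT 2, the single cell, held the 3 lowest values within MUT (0.599, 0.610 and 0.653).

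The lineage label was checked against marker genes. The summed level of 8 EPI markers (Nanog, Sox2, Fgf4, Klf2, Tdgf1, Gdf3, Prdm14 and Bmp4) lay between 1301 and 3968 CPM in the 9 MUT EPI cells and between 2624 and 4903 CPM in the 19 WT EPI cells. The same sum lay between 31.4 and 787 CPM in the 14 MUT cells labelled primitive endoderm (PrE), so the label held in every MUT cell by this measure. In the 10 WT cells labelled PrE it ran from 20.7 to 2434 CPM, and the highest cell lay above the lowest MUT EPI cell. The sum of 6 trophectoderm markers was 506, 685, 119 and 44.8 CPM in MUT 1, 2, 4 and 5, against 176, 69.8 and 46.8 CPM in WT 1, 2 and 3. The 2 embryos of letter B stood above the rest. Krt8 and Krt18, the keratins of simple epithelium, made up nearly all of that sum, and Cdx2, the factor that specifies trophectoderm, had no count in any MUT sum and 2 counts in WT 2. Gata3 had no count in MUT either, and Hand1 had 1 count in MUT 1. The wider list of trophectoderm markers summed to 2548, 2700, 1171 and 583 CPM in MUT 1, 2, 4 and 5. In WT 1, 2 and 3 it summed to 660, 716 and 587 CPM, so the difference was not confined to the keratins. The part of such RNA in the results was not tested.

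Stat3 itself (chromosome 11, 100885098 to 100939540 of mm10, minus strand) had 28.8, 0.317, 9.25 and 0.0322 CPM in MUT 1, 2, 4 and 5, against 178.5, 169.9 and 92.9 CPM in WT 1, 2 and 3. The lowest WT embryo was far above the highest MUT embryo. The mean was 9.60 ± 13.5 CPM in MUT and 147 ± 47.1 CPM in WT (SD over 4 and 3 embryos), a difference of -137.5 CPM (exact permutation test, two-sided, p = 0.0286, the lowest that 35 splits allow). In edgeR's quasi-likelihood fit of all genes the log2 fold change was -3.93 (SE 1.59, adjusted p = 0.972). In single cells, Stat3 was over 10 CPM in 3 of 9 MUT cells and in 19 of 19 WT cells, where it ran from 60.7 to 270.9 CPM. The 3 MUT cells were both cells of MUT 1, at 38.9 and 15.6 CPM, and 1 of the 3 cells of MUT 4, at 34.9 CPM. Each lay below every WT cell. Since the deleted part is not known, it cannot be told whether these counts come from the part of the gene that remains.

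**Figure D1:**
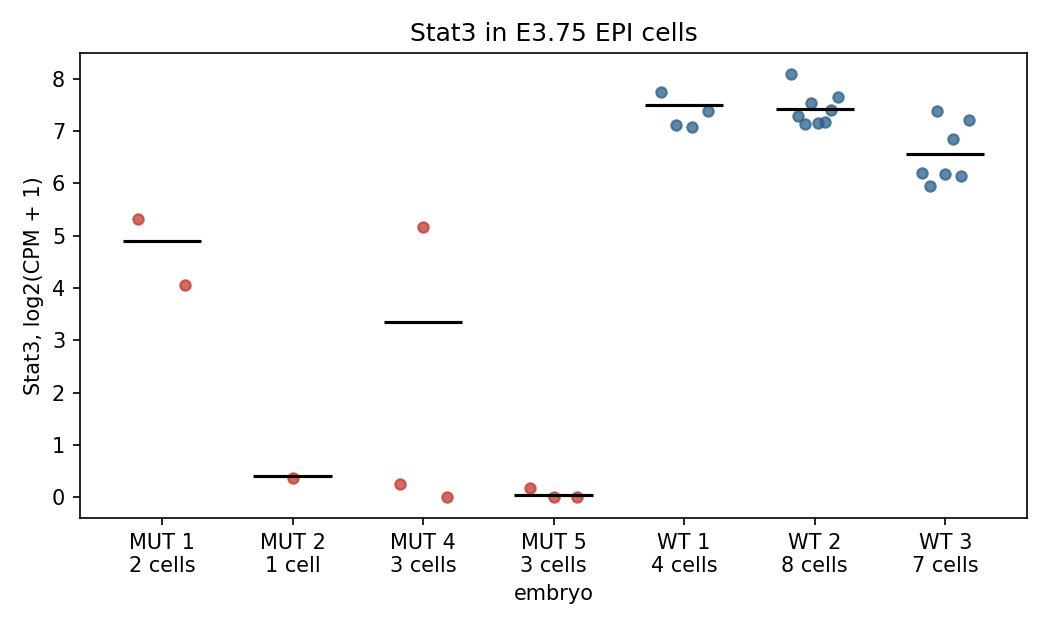
Stat3 level, log2(CPM + 1), of each E3.75 EPI cell (points) and of each embryo's sum (black lines), with MUT embryos in red on the left and WT embryos in blue on the right. The 9 MUT cells reach at most 38.9 CPM and the 19 WT cells start at 60.7 CPM.

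Across all genes, edgeR's quasi-likelihood test called 0 of 12298 genes (0%) at an adjusted p of 0.05. At an unadjusted p under 0.05 it held 181 genes higher in MUT EPI (1.47%) and 389 lower (3.16%), 570 in all. DESeq2 on the same counts called 51 genes higher (0.415%) and 136 lower (1.11%). Of all 12298 log2 fold changes, 6459 were positive and 5839 negative (median 0.04). What follows is a ranking with values, not a list of changed genes. The 2 groups did not overlap upwards, with the lowest MUT embryo above the highest WT embryo, in 271 genes (2.20%), and did not overlap downwards in 666 genes (5.42%). Among the 6703 genes with a mean of at least 20 CPM in 1 group, 212 did not overlap upwards and 273 downwards, while 158 were higher and 129 lower at an unadjusted edgeR p under 0.05. 78 tested genes had no count in any MUT sum and 2 had none in any WT sum, and the part of the smaller MUT sums in this was not tested.

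Lcp1 held the smallest p of all 12298 genes. It encodes L-plastin, an actin-bundling protein (chromosome 14, 75131101 to 75230842), and had 19.9, 14.7, 14.2 and 6.22 CPM in MUT 1, 2, 4 and 5, against 161, 220 and 143 CPM in WT 1, 2 and 3. All MUT embryos lay below all WT embryos by a wide margin (log2 fold change -3.67, SE 0.44, edgeR adjusted p = 0.325; DESeq2 adjusted p = 7.14e-11). It was over 10 CPM in 4 of 9 MUT cells and in 19 of 19 WT cells. Among males of letter A the log2 ratio was -3.68. Hexa, a subunit of the lysosomal enzyme β-hexosaminidase (chromosome 9, 59539540 to 59565109), had 227, 185, 183 and 225 CPM in MUT, against 399, 451 and 468 CPM in WT. The spread within each group was small against the gap (log2 -1.10, SE 0.17, edgeR adjusted p = 0.325). Prr13, which encodes a proline-rich protein, had 42.2, 32.8, 30.4 and 64.0 CPM in MUT, against 160, 162 and 159 CPM in WT. The 3 WT embryos were nearly equal and the MUT embryos all lay under them (log2 -1.92, SE 0.32).

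Cdk2 and Coprs were among the other low genes. Cdk2, the kinase that drives entry into S phase, had 73.0, 61.8, 114 and 98.2 CPM in MUT, against 261, 188 and 220 CPM in WT (log2 -1.36, SE 0.27). Coprs, which recruits the arginine methyltransferase PRMT5 to histones, had 52.8, 47.8, 53 and 67.8 CPM in MUT, against 140, 138 and 173 CPM in WT (log2 -1.44, SE 0.25). Both genes were close within a group and did not overlap between groups. Agtrap, an angiotensin receptor-associated protein, averaged 134 ± 9.59 CPM in MUT and 270 ± 34.7 CPM in WT, and Ttyh2, of the tweety family of membrane proteins, 22.4 ± 8.91 CPM in MUT and 141 ± 79.1 CPM in WT (SD over 4 and 3 embryos).

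5 of the 12 leading low genes were at or near 0 in MUT. Fxyd6, which modulates the sodium pump, had no count in 9 MUT cells, against 5.90, 46.9 and 33.2 CPM in WT 1, 2 and 3, and was over 10 CPM in 13 of 19 WT cells. Its WT mean of 28.7 CPM lay 865-fold above a floor of 3 counts over the 4 MUT sums. Mfsd4b1, a membrane transporter, had 1 count in the 4 MUT sums, against 1572, 763 and 3607 counts in WT 1, 2 and 3. Gpr161, a receptor of the primary cilium that restrains Hedgehog signalling, had 0, 2, 1 and 1 counts in MUT 1, 2, 4 and 5, against 3892, 1262 and 614 counts in WT. No MUT cell held more than 0.193 CPM of it. Prelid2 had 0.427, 2.43, 0.414 and 2.13 CPM in MUT, against 62.2, 24.3 and 38.1 CPM in WT, and Tmem144 had at most 0.871 CPM in a MUT sum and at least 6.4 CPM in a WT sum. These genes were not uniform in WT either: Gpr161 was over 10 CPM in 10 of 19 WT cells, Mfsd4b1 in 11, Tmem144 in 11 and Prelid2 in 16.

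The leading high genes began with Egr1, the immediate early factor that ERK signalling induces. It had 710, 813, 816 and 788 CPM in MUT 1, 2, 4 and 5, against 290, 341 and 460 CPM in WT 1, 2 and 3. The MUT embryos lay close together above all WT embryos, though single cells overlapped (363 to 1566 CPM in MUT and 30.1 to 1065 CPM in WT). Plpp1, a phospholipid phosphatase of the cell surface, had 236, 280, 286 and 339 CPM in MUT, against 132, 142 and 146 CPM in WT (log2 1.03, SE 0.20, edgeR adjusted p = 0.325). Slc52a2, a riboflavin transporter, had 67.3, 64.0, 65.7 and 59.8 CPM in MUT, against 22.8, 9.28 and 12.8 CPM in WT (log2 2.10, SE 0.45). Its MUT embryos lay close together above all WT embryos, and the log2 ratio among letter A males was 2.21.

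Id3, an inhibitor of helix-loop-helix factors that BMP signalling induces, had 808, 1036, 959 and 829 CPM in MUT, against 611, 433 and 482 CPM in WT (log2 0.84, SE 0.18). Every MUT embryo exceeded every WT embryo, and in the rest of the BMP pathway list no member did so. Dnmt3a, a de novo DNA methyltransferase (chromosome 12, 3806007 to 3914443), had 43.2, 27.9, 394 and 170 CPM in MUT, against 3.54, 6.19 and 13.5 CPM in WT. The 2 letter A embryos were highest, the groups did not overlap, and 9 of 9 MUT cells but 6 of 19 WT cells were over 10 CPM (log2 4.35, SE 1.09, edgeR adjusted p = 0.336). Plet1, a surface protein found in trophectoderm and placenta, had 250, 316, 132 and 67.1 CPM in MUT, against 23.6, 38.1 and 25.2 CPM in WT. MUT 1 and 2, which held the highest keratin levels, were highest for Plet1 too. Selenop, the selenium carrier, had 2.13, 28.9, 119 and 54.5 CPM in MUT, against 0, 0.282 and 0.0869 CPM in WT, and was over 10 CPM in 5 of 9 MUT cells and 0 of 19 WT cells.

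5 further genes completed the 12. H3f3b, which encodes histone H3.3 and has processed copies that can share reads, averaged 2606 ± 249 CPM in MUT and 1657 ± 186 CPM in WT. Zw10, of the mitotic spindle checkpoint, averaged 223 ± 52.6 CPM in MUT and 105 ± 16.2 CPM in WT. Gmfb, an actin-debranching factor, averaged 159 ± 9.34 CPM in MUT and 79.8 ± 17 CPM in WT. Scamp5, of secretory vesicles, averaged 80.8 ± 22.2 CPM in MUT and 28.3 ± 1.05 CPM in WT, and Itm2b, a membrane protein, 179 ± 37.4 CPM in MUT and 89.3 ± 17.6 CPM in WT (SD over 4 and 3 embryos). DESeq2 called all 24 leading genes (adjusted p 7.14e-11 to 0.0274), while edgeR called 0.

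**Figure D2:**
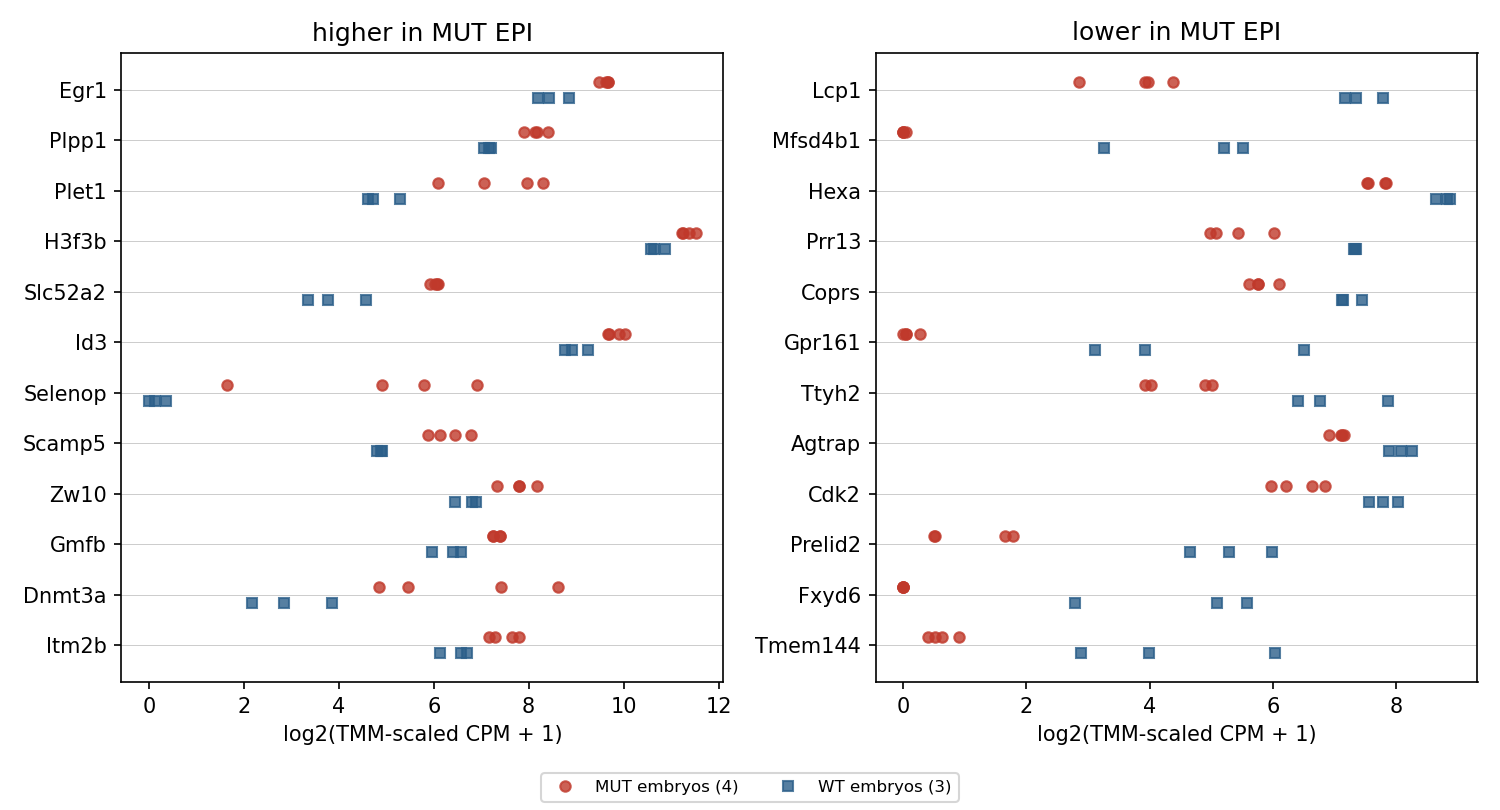
Level in each embryo, log2(TMM-scaled CPM + 1), of the 12 autosomal genes higher (left) and the 12 lower (right) in MUT EPI with the smallest edgeR p, among genes with a mean of at least 20 CPM in 1 group and no overlap between groups. Red circles are the 4 MUT embryos and blue squares the 3 WT embryos. Slc52a2 is even across MUT, whereas Dnmt3a and Selenop spread widely, and Fxyd6 sits at 0 in every MUT embryo.

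The LIF and IL6 pathway itself was examined from the ligand inwards. 22 of the 30 listed ligands, receptors, kinases, STATs and regulators passed the low-count filter, 6 with a positive and 16 with a negative log2 fold change, median -0.46, against 0.04 over all genes tested. 3 members did not overlap downwards (Osm, Stat3 and Stat5b; 13.6%, against 5.42% of all genes) and 1 upwards (Lif; 4.55%, against 2.20%). With each embryo left out in turn the downward count was 3 to 6 (13.6% to 27.3%, against 7.99% to 9.94% of all genes). It reached 6 only without MUT 5. By the log2 ratio of mean CPM + 1 the median of the list was -0.44 over all embryos and -0.08 among letter A males. Lif, the ligand, had 10.2, 46.0, 9.76 and 11.4 CPM in MUT, against 6.27, 0.0113 and 3.08 CPM in WT. No WT embryo reached the lowest MUT embryo, and MUT 2 stood far above the other MUT embryos (log2 2.63, SE 1.67, edgeR adjusted p = 1). Osm, a ligand of the same family, had no count in 9 MUT cells, against 14.5, 2.09 and 2.02 CPM in WT, at least 187-fold lower against the floor of 3 counts over the MUT sums.

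Receptor chains and kinases overlapped between the groups. Lifr, the LIF receptor, had 84.7, 3.27, 95.3 and 107 CPM in MUT, against 141, 104 and 102 CPM in WT, with the single cell of MUT 2 far below the rest. Il6st averaged 44.6 ± 33.4 CPM in MUT and 57.2 ± 24.3 CPM in WT, and Jak1 25.7 ± 20.9 CPM in MUT and 39.9 ± 5.53 CPM in WT. Jak2 was at 0 in MUT 1 and 2, at 14.2 CPM in MUT 4 and at 17.2 CPM in MUT 5, against 0.482, 0 and 0.0497 CPM in WT. So Jak2 was seen in both MUT embryos of letter A but hardly in WT 3, which carries that letter too. It rested on few cells: 2 of 9 MUT cells and 0 of 19 WT cells were over 10 CPM, and 3 MUT and 4 WT cells held any count. Of the other STATs, Stat5b had 3 counts in the 4 MUT sums, against 73, 268 and 212 counts in WT 1, 2 and 3. Stat5a, whose annotated end overlaps that of Stat3, had 6.55, 0.106, 25.5 and 19.1 CPM in MUT, against 2.04, 4.12 and 18.6 CPM in WT. Stat6 averaged 70.3 ± 51.4 CPM in MUT and 43.3 ± 31.5 CPM in WT. Ptpn11, the phosphatase that links these receptors to ERK, had 9.53, 18.5, 17.9 and 1.93 CPM in MUT, against 87.1, 6.08 and 24.9 CPM in WT.

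Among genes within 5 Mb of Stat3, 3 of 160 did not overlap upwards and 8 downwards (5%), a share near that of all genes. The median log2 fold change there was 0.01.

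Most STAT3 targets had a negative log2 fold change in MUT EPI. 25 of 28 targets passed the filter, 6 with a positive and 19 with a negative log2 fold change, median -0.41. Over all genes 5839 of 12298 were negative, median 0.04. Some of the negative values were close to 0, among them Fos (-0.03), Gbx2 (-0.03) and Fgl2 (-0.06). In 9 of the 25 (36.0%) every MUT embryo lay below every WT embryo, against 5.42% of all genes, and 7 had an unadjusted edgeR p under 0.05 in that direction, against 3.16% of all genes. 1 target, Pim2, did not overlap upwards (4%, against 2.20% of all genes). With each embryo left out in turn, 9 to 11 targets (36% to 44%) did not overlap downwards, against 7.99% to 9.94% of all genes. Between MUT 4 and 5 and WT 3, all male and of letter A, 16 of 25 targets were lower in MUT, with a median log2 ratio of -1.17. Over all genes 5962 of 12298 were lower in that comparison, with a median of 0.02. Members of the list were known from earlier work on STAT3, but they were chosen with earlier results of these data known. The shares above are thus a description and not an independent test, and the edgeR fit called 0 members.

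The feedback inhibitors differed among themselves. Socs3 had 8.21, 0, 0.0345 and 0.161 CPM in MUT 1, 2, 4 and 5, against 123, 161 and 46.9 CPM in WT 1, 2 and 3. It was over 10 CPM in 1 of 9 MUT cells and in 19 of 19 WT cells, and the MUT embryo with the most Socs3, MUT 1, was also the one with the most Stat3 (log2 -5.70, SE 1.86, edgeR adjusted p = 0.603; DESeq2 adjusted p = 0.0178). Socs2 had 87.5, 31.5, 155 and 93.3 CPM in MUT, against 118, 105 and 132 CPM in WT, and Socs1 12.7, 11.7, 3.21 and 10.3 CPM in MUT, against 48.1, 8.99 and 10.6 CPM in WT. Both overlapped between the groups.

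Bcl6, a transcriptional repressor, had 0, 0, 0 and 0.613 CPM in MUT, against 33.3, 16.1 and 9.14 CPM in WT, and no MUT cell exceeded 1.69 CPM. Sgk1, a survival kinase, had 80.9, 295, 91.8 and 156 CPM in MUT, against 483, 508 and 512 CPM in WT, where the 3 embryos were nearly equal. Both genes thus did not overlap between the groups. The same was true of Pramel7, Timp1, Myc and Icam1. Pramel7, which promotes the removal of UHRF1 and with it of DNA methylation, averaged 4.99 ± 5.32 CPM in MUT and 45.8 ± 36.4 CPM in WT. Timp1, an X-linked inhibitor of metalloproteinases, averaged 18.8 ± 20.2 CPM in MUT and 98.4 ± 38.0 CPM in WT. Myc averaged 64.5 ± 55.0 CPM in MUT and 293 ± 139 CPM in WT, and Icam1, an adhesion molecule, 17.6 ± 13.7 CPM in MUT and 72.4 ± 40.6 CPM in WT (SD over 4 and 3 embryos).

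The naive factors among the targets differed in how their embryos lay. Tfcp2l1 (chromosome 1, 118627945 to 118685168) had 563, 460, 137 and 220 CPM in MUT, against 1211, 723 and 583 CPM in WT, so that the highest MUT embryo lay just under the lowest WT embryo. The difference was log2 -1.28 (SE 0.49, edgeR adjusted p = 0.892), and every one of the 28 cells held the transcript over 10 CPM. Klf4 had 18.3, 287, 61.2 and 81.7 CPM in MUT, against 122, 86.3 and 70.0 CPM in WT, with the single cell of MUT 2 at the top; its fitted log2 fold change was 0.27 with MUT 2 and -0.81 without it. Klf5 averaged 133 ± 40.5 CPM in MUT and 105 ± 5.06 CPM in WT. An overlap of this kind does not show that the groups were alike.

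The PIM kinases, which STAT3 induces in many cell types, were not alike among themselves. Pim1 had 81.2, 31.1, 8.63 and 60.0 CPM in MUT, against 54.9, 37.9 and 87.7 CPM in WT, and Pim3 195, 93.5, 84.5 and 65.0 CPM in MUT, against 119, 157 and 132 CPM in WT. Both overlapped. Pim2, on the X chromosome, was higher in MUT, unlike most targets, with 48.9, 169, 421 and 286 CPM in MUT, against 22.7, 16.8 and 34.5 CPM in WT (log2 3.23, SE 0.71, edgeR adjusted p = 0.325; DESeq2 called it). All 9 MUT cells and 16 of 19 WT cells were over 10 CPM, and the log2 ratio within letter A males was 3.32.

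**Figure D3:**
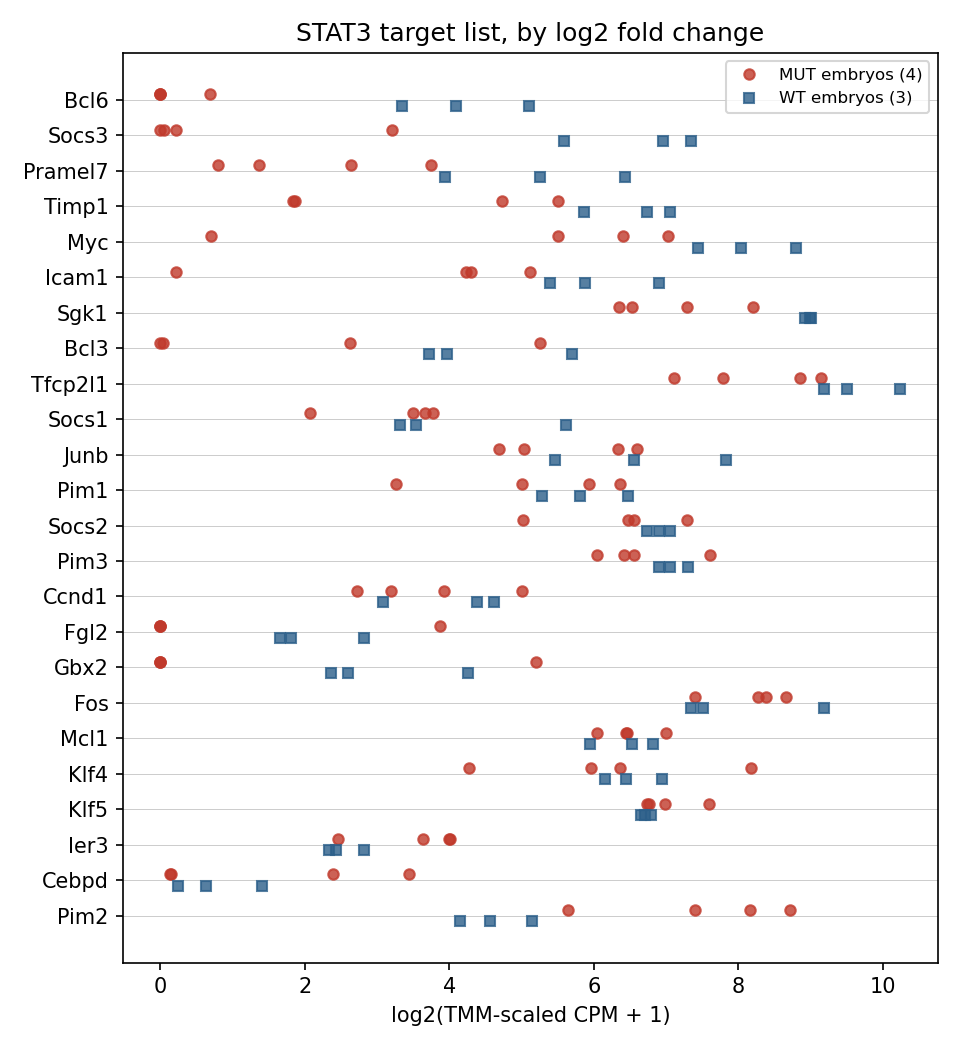
Level in each embryo, log2(TMM-scaled CPM + 1), of 24 of the 25 STAT3 targets that passed the low-count filter, ordered by log2 fold change with the lowest at the top. Red circles are the 4 MUT and blue squares the 3 WT embryos. Bcl6 and Socs3 lie near 0 in most MUT embryos, and Pim2 at the foot of the plot is the target whose MUT embryos all lie above WT.

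Promoters of 3 of the low targets hold the sequence that STAT dimers are known to recognise, TTCNNNGAA, and are shown for that reason. The 250 bases before the RefSeq start site were read 5′ to 3′ on the gene's strand from RefSeq (GRCm38.p6, the build mm10 stands for), with matches in capitals. The motif is its own reverse complement, so 1 search covers both strands. The Socs3 window is chr11:117969367-117969616 on the minus strand, with a match that starts 154 bases before the start site. The Bcl6 window is chr16:23981284-23981533 on the minus strand, the start site of 2 in the table with more matches, at 168, 122 and 88 bases. The Icam1 window is chr9:21015690-21015939 on the plus strand, with a match at 42 bases.
Socs3: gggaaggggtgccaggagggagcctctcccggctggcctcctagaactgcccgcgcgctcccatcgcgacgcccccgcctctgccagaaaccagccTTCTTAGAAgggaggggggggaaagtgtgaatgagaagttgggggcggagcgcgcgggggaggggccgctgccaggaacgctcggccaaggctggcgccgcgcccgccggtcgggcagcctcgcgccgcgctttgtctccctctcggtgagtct
Bcl6: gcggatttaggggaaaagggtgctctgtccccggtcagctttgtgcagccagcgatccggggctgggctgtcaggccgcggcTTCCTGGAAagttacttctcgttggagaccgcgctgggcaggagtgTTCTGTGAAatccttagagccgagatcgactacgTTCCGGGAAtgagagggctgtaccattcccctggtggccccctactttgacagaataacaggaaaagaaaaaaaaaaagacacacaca
Icam1: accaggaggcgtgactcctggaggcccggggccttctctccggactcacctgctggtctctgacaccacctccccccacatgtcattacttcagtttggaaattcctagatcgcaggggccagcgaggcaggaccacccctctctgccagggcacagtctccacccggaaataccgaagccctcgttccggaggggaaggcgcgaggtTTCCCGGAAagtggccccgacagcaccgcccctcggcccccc
Of the 28 targets, 22 had a promoter sequence in the table, and in 6 of them (27.3%) at least 1 promoter, from 250 bases before to 50 bases after a start site, held the motif. Over all 27025 genes with a promoter sequence the share was 9.55%, and over all 32851 promoter sequences 8.30%. Sgk1 was another low target with a match, and Tfcp2l1, Pramel7 and Timp1 held none in these windows. The remaining targets with a match were not low: Fgl2 overlapped between the groups (log2 -0.06, SE 2.61), and Cish did not pass the low-count filter. A match is a description of the letters and not evidence that STAT3 binds there in these cells.

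Markers of the naive epiblast were in place in MUT cells, at uneven levels. Of 31 naive and EPI genes tested, 15 had a positive and 16 a negative log2 fold change (median -0.03). 1 did not overlap upwards (3.23%, against 2.20% of all genes) and 1 downwards (3.23%, against 5.42%). Nanog had 445, 240, 628 and 1086 CPM in MUT, against 1149, 1151 and 995 CPM in WT; MUT 5 reached the WT range and the other 3 lay under it. Prdm14, a repressor of FGF signalling and of DNA methylation in naive cells, had 9.58, 0, 129 and 73.7 CPM in MUT, against 136, 97.9 and 119 CPM in WT. The 2 letter B embryos were lowest for both genes. Sox2 had 39.8, 85.8, 65.5 and 43.6 CPM in MUT, against 38.3, 37.0 and 37.1 CPM in WT, the 1 member that did not overlap upwards. Tdgf1, the Nodal co-receptor, averaged 910 ± 555 CPM in MUT and 1382 ± 305 CPM in WT, and Gdf3 188 ± 27.2 CPM in MUT and 256 ± 102 CPM in WT.

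Genes of the next state of the epiblast were followed as well. Of 22 formative and primed markers, 13 were tested, 9 with a positive log2 fold change, and the median was 0.83. By the log2 ratio of mean CPM + 1 it was 0.73 over all embryos and 1.15 among letter A males. 2 did not overlap upwards, Dnmt3a and Eomes (15.4%, against 2.20% of all genes), and 1 downwards (7.69%, against 5.42%). Eomes, a T-box factor of trophectoderm and later of gastrulation, had 15.7, 44.8, 27.0 and 38.3 CPM in MUT, against 10.2, 3.74 and 5.86 CPM in WT. Etv4, which FGF signalling induces, had 5.03, 32.6, 105 and 68.3 CPM in MUT, against 4.06, 7.41 and 8.32 CPM in WT, where MUT 1 lay within the WT range. Of 22 FGF/ERK targets tested, 3 did not overlap upwards (13.6%, against 2.20% of all genes). 4 had an unadjusted edgeR p under 0.05 in that direction, against 1.47% of all genes. 1 target, Myc, did not overlap downwards (4.55%, against 5.42%), 11 of the 22 log2 fold changes were negative, and the median was 0.12. With each embryo left out in turn the upward count was 3 to 6 of 22, against 468 to 647 of all 12298 genes. It was highest without MUT 1. The downward count was then 1 to 3 (4.55% to 13.6%, against 7.99% to 9.94% of all genes), highest without WT 1. Phlda1, which did not overlap upwards, had 11.4, 40.2, 39.5 and 16.7 CPM in MUT, against 3.47, 1.49 and 2.33 CPM in WT. Of 13 FGF ligands and receptors tested, 1 did not overlap upwards (7.69%, against 2.20% of all genes) and 2 downwards (15.4%, against 5.42%), with a median of -0.10. Fgf10, a ligand, had 12.8, 0.739, 22.2 and 2.45 CPM in MUT, against 318, 106 and 104 CPM in WT, and was over 10 CPM in 2 of 9 MUT cells and 18 of 19 WT cells (log2 -4.20, SE 1.07, edgeR adjusted p = 0.338).

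Markers of the other lineages were examined in the same way. Of 29 PrE markers tested, 2 did not overlap upwards (6.9%, against 2.20% of all genes) and 3 downwards (10.3%, against 5.42%), with a median of 0.59. Sox17 was at 86.0 and 33.0 CPM in MUT 1 and MUT 4 and at 1.90 and 2.68 CPM in MUT 2 and MUT 5, against 12.2, 8.92 and 11.2 CPM in WT. Aqp8 averaged 6.59 ± 9.01 CPM in MUT and 101 ± 132 CPM in WT. Of 14 trophectoderm markers tested, 10 had a positive log2 fold change, with a median of 0.46. In each direction 1 did not overlap (7.14%, against 2.20% of all genes upwards and 5.42% downwards). Krt8 had 385, 375, 105 and 44.7 CPM in MUT, against 162, 60.1 and 40.8 CPM in WT, and Krt18 120, 309, 14.7 and 0.161 CPM in MUT, against 12.3, 8.90 and 1.79 CPM in WT. Without MUT 1 and 2 the fitted log2 fold changes of Krt8 and Krt18 turned to -0.25 and -0.06. Of 6 oocyte and maternal transcripts tested, none lay apart in either direction, and the defining oocyte genes Gdf9 and Bmp15 had 2 counts in all 7 sums together. Zp3, the third defining oocyte gene, had 0.38, 21.8, 39.7 and 61.8 CPM in MUT, against 21.5, 7.68 and 13.5 CPM in WT. The summed oocyte markers had a median of 39.6 CPM over MUT cells and 7.58 CPM over WT cells, and their part in the results was not tested.

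Among junction genes several lay lower in MUT. Of 29 tested, 5 did not overlap downwards (17.2%, against 5.42% of all genes) and 1 upwards (3.45%, against 2.20%). 4 had an unadjusted edgeR p under 0.05 downwards and 2 upwards, against 3.16% and 1.47% of all genes. The median log2 fold change was 0.02. Icam1 was counted among the STAT3 targets already. Cldn7, a claudin of tight junctions, had 101, 32.3, 36.8 and 54.6 CPM in MUT, against 220, 153 and 144 CPM in WT (log2 -1.61, SE 0.43, edgeR adjusted p = 0.341).

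The series is titled after metabolism and imprinted genes, and both were followed in the epiblast. Of 76 nuclear subunits of the respiratory chain, 0 did not overlap upwards and 2 downwards (2.63%, against 5.42% of all genes), with a median log2 fold change of 0.03. The 12 mitochondrially encoded mRNAs tested held none in either direction, median 0.06. Of 33 genes of the TCA cycle and of α-ketoglutarate, 1 did not overlap upwards (3.03%, against 2.20% of all genes) and 2 downwards (6.06%, against 5.42%), shares near the background. Cs, the citrate synthase, had 283, 168, 166 and 219 CPM in MUT, against 327, 399 and 304 CPM in WT (log2 -0.71, SE 0.24, edgeR adjusted p = 0.664). Idh3g, the X-linked subunit of isocitrate dehydrogenase, had 257, 210, 272 and 293 CPM in MUT, against 560, 538 and 398 CPM in WT. The male WT embryo was the lowest WT embryo for this gene, and the log2 ratio among letter A males was -0.49, against -0.95 over all embryos.

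Glycolytic genes depended on which embryos were set side by side. Of 22 tested, 16 had a negative log2 fold change, median -0.31, whereas among letter A males 6 of 22 were lower in MUT. By the log2 ratio of mean CPM + 1 the median was -0.28 over all embryos and 0.28 among letter A males. Slc2a3, the glucose transporter GLUT3, had 23.6, 74.9, 72.5 and 78.2 CPM in MUT, against 167, 312 and 108 CPM in WT, and Hk2, hexokinase 2, 78.5, 86.0, 60.2 and 52.2 CPM in MUT, against 117, 162 and 98.3 CPM in WT. Both were lower in every MUT embryo than in every WT embryo, WT 3 being the lowest of its group. Tdh, the threonine dehydrogenase on which mouse stem cells rely, had 271, 390, 725 and 421 CPM in MUT, against 604, 936 and 865 CPM in WT, with MUT 4 inside the WT range.

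Of 84 listed imprinted genes, 41 passed the filter, 25 with a positive log2 fold change. 2 did not overlap upwards (4.88%, against 2.20% of all genes), 1 did so downwards (2.44%, against 5.42%), and the median was 0.51. By the log2 ratio of mean CPM + 1 it was 0.48 over all embryos and -0.17 between MUT 1 and 2 and WT 1 and 2. Snrpn, a splicing protein gene read from the paternal allele, had 134, 261, 382 and 327 CPM in MUT, against 131, 99.1 and 90.6 CPM in WT. MUT 1 only just exceeded WT 1, and the other 3 MUT embryos stood clear (log2 1.37, SE 0.37, edgeR adjusted p = 0.341). Commd1 averaged 186 ± 33.6 CPM in MUT and 131 ± 11.6 CPM in WT. Of 20 genes of the DNA methylation machinery Dnmt3a alone did not overlap (5% upwards, against 2.20% of all genes), and the median was 0.38. Of 22 listed germline genes, 13 were tested, and 2 of these did not overlap downwards (15.4%, against 5.42% of all genes) and 0 upwards. Kit, 1 of them and a receptor kinase, had 7.07, 0, 0.0345 and 0.129 CPM in MUT, against 24.5, 33.2 and 94.6 CPM in WT.

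The remaining lists were read in the same way. Of 31 cell cycle genes, 4 did not overlap downwards (12.9%, against 5.42% of all genes) and 0 upwards. They were Cdk2, Ccna2, the cyclin that partners it in S phase, and Cdkn1a and Cdkn1b, which inhibit cyclin-dependent kinases. Rrm2, which supplies deoxynucleotides, averaged 206 ± 71.9 CPM in MUT and 348 ± 98.0 CPM in WT. Of 25 p53 and cell death genes, 19 had a positive log2 fold change, against 6459 of all 12298 genes. Perp alone lay apart upwards (4%, against 2.20% of all genes). Cdkn1a, which is in this list too, alone lay apart downwards (4%, against 5.42%). Perp, a p53 target of cell junctions, had 9.49, 14.7, 20.1 and 24.5 CPM in MUT, against 4.80, 1.59 and 0.633 CPM in WT. Eda2r, another, had 15.3, 142, 0 and 4.90 CPM in MUT and at most 0.868 CPM in WT. 1 of 14 BMP genes (Id3, 7.14%), 1 of 19 Wnt genes (5.26%) and 1 of 20 immediate early and heat shock genes (Egr1, 5%) did not overlap upwards. The share over all genes was 2.20%. In these 3 lists and in the 17 Nodal genes 0 did so downwards, against 5.42% of all genes. 1 member lay apart downwards and 0 upwards among 21 one-carbon, serine and threonine genes (4.76%), 23 sterol and lipid genes (4.35%), and 15 interferon and antigen presentation genes (6.67%). These downward shares stand beside 5.42% of all genes. None of 3 tested genes of the two-cell stage lay apart.

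**Figure D4:**
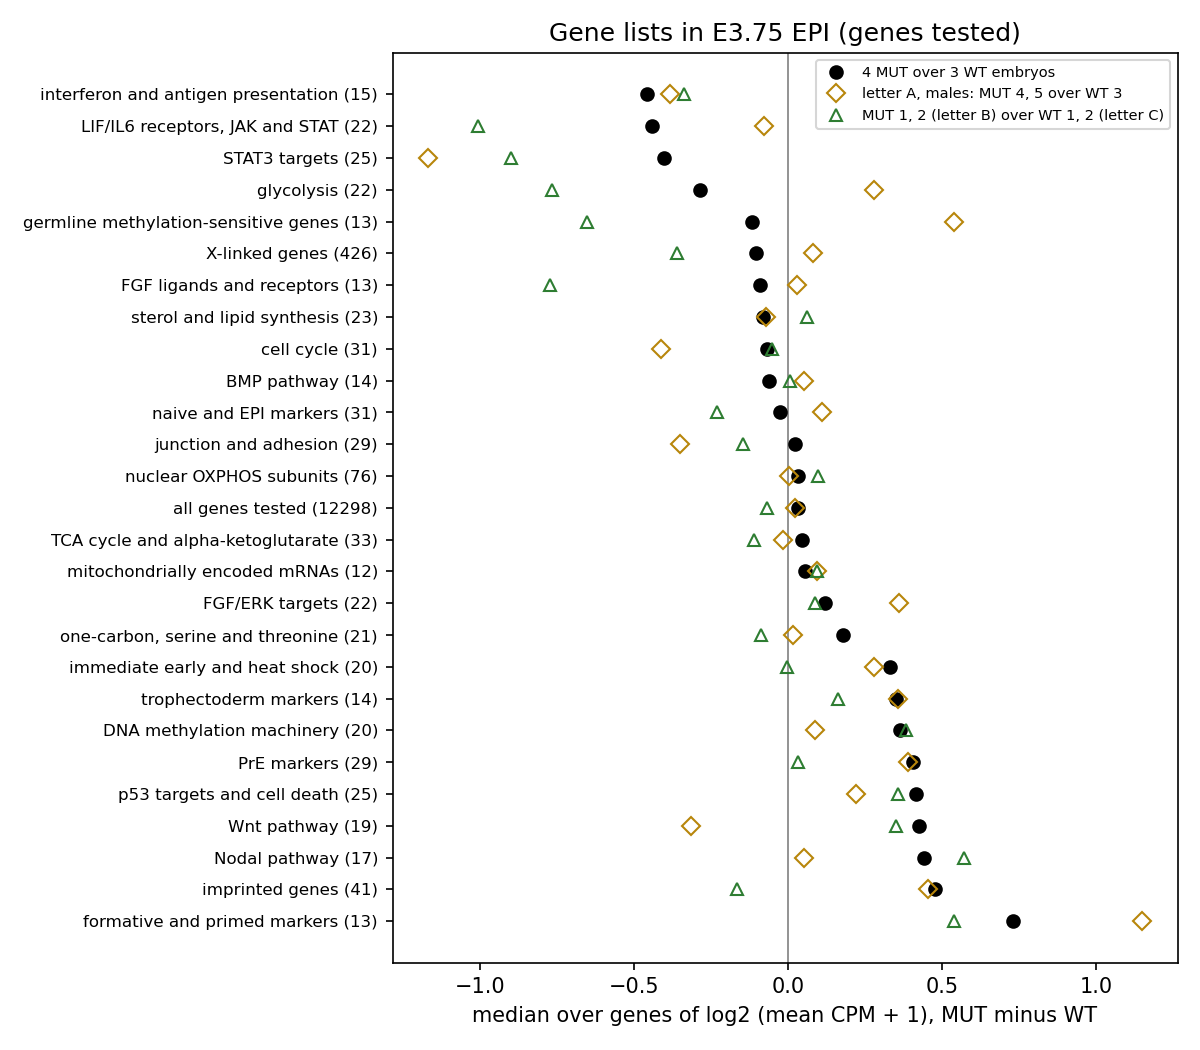
Median over the tested genes of each list (number in brackets) of the log2 ratio of mean CPM + 1, MUT over WT, for lists of at least 10 tested genes, the X-linked genes and all genes. Black circles compare 4 MUT with 3 WT embryos, open diamonds MUT 4 and 5 with WT 3 (letter A, male), and open triangles MUT 1 and 2 (letter B) with WT 1 and 2 (letter C). The STAT3 targets lie left of 0 in all 3, whereas glycolysis and the imprinted genes change side.

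X-linked genes have to be read with the sex of the embryos in mind, since all MUT embryos were male. Of 426 X-linked genes tested, 37 did not overlap downwards (8.69%, against 5.42% of all genes) and 6 upwards (1.41%), with a median log2 fold change of -0.12. X-linked genes took 2.24%, 2.12%, 2.60% and 2.61% of counts in MUT 1, 2, 4 and 5, against 2.92% and 3.65% in the females WT 1 and WT 2 and 2.37% in the male WT 3. Over the 223 X-linked genes with a mean of at least 20 CPM in 1 group, the median log2 ratio of the MUT mean was -0.16 to WT 1, -0.37 to WT 2 and 0.18 to WT 3, while 6467 autosomal genes gave 0.08 to 0.11. The lower X-linked level in MUT was thus seen against the female WT embryos and not against the male one. Ube2a, a ubiquitin-conjugating enzyme, had 225, 142, 197 and 205 CPM in MUT, against 921, 851 and 438 CPM in WT. The male WT 3 lay between, at a log2 ratio of -1.12 to letter A MUT embryos, against -1.94 in the whole fit. Renbp averaged 162 ± 38.0 CPM in MUT and 453 ± 209 CPM in WT, and Wdr45, of autophagy, 76.1 ± 23.1 CPM in MUT and 172 ± 22.9 CPM in WT. Phf6, a chromatin protein, was higher in MUT, at 155, 91.6, 168 and 307 CPM in MUT, against 75.9, 64.3 and 50.8 CPM in WT.

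The difference in EPI was set against that in the PrE cells of the same 7 embryos, with the embryo as a block. 0 of 14220 genes (0%) were called, and 443 (3.12%) had an unadjusted edgeR p under 0.05. The PrE sum of WT 3 is a single cell, and the WT PrE cells were mixed by their markers: of the 3 PrE cells of WT 1, 2 held 2434 and 2187 CPM of EPI markers and 1 held 9687 CPM of trophectoderm markers. Lama1, a laminin chain of the basement membrane that PrE lays down, led (interaction log2 -3.81, SE 0.37, edgeR adjusted p = 0.101). In EPI it had 4.74, 6.44, 2.76 and 2.35 CPM in MUT, against 10.5, 84.8 and 19.2 CPM in WT, and in PrE 763, 787, 478 and 526 CPM in MUT, against 135, 661 and 343 CPM in WT. Thus it lay lower in every MUT EPI sum while its PrE ranges overlapped. Without WT 1 the interaction was -3.86 with an adjusted p of 0.750. Gdpd5 had 0.664, 0.634, 0.863 and 0.387 CPM in MUT EPI, against 28.6, 7.22 and 5.78 CPM in WT EPI, and 139 ± 25.1 CPM in MUT PrE and 72.2 ± 37.1 CPM in WT PrE (interaction log2 -5.08, SE 1.06, adjusted p = 1). The others of the 5 genes with the smallest p were Dppa2, Ddah1 and Mum1, with interactions of 1.62, 3.43 and -1.37. For Dppa2, a factor of pluripotent cells, the 7 EPI sums overlapped between 502 and 862 CPM, whereas in PrE every MUT sum (144 to 215 CPM) lay under every WT sum (340 to 573 CPM).

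The difference in EPI was also set against that in E3.5 ICM of 5 MUT and 5 WT other embryos, of which 4 MUT and 2 WT embryos were female. The ICM cells carry letters D to H and the E3.75 cells A to C, so stage and letter cannot be told apart. Embryo medians of the total count per cell were 2000230 to 5915310 in ICM, against 10351004 to 11269527 in EPI. 0 of 15756 genes (0%) were called, and 1458 (9.25%) had an unadjusted edgeR p under 0.05. Tat, a tyrosine-degrading enzyme of liver, had no count in the MUT EPI sums, against 56.7, 13.6 and 2.90 CPM in WT EPI, and averaged 10.1 ± 4.74 CPM in MUT ICM and 43.7 ± 37.4 CPM in WT ICM (interaction log2 -11.06, SE 1.81, adjusted p = 0.230). Qsox2, a thiol oxidase, showed its genotype difference in ICM, with 25.7 ± 12.7 CPM in MUT ICM and 0.144 ± 0.0963 CPM in WT ICM, and overlapped in EPI (0.106 to 11.4 CPM in MUT and 4.89 to 32.4 CPM in WT). Ppm1g, a phosphatase, likewise had 155 ± 44.4 CPM in MUT ICM and 37.6 ± 13.3 CPM in WT ICM, and in EPI 152 ± 47.2 CPM in MUT and 187 ± 31.3 CPM in WT. Rab31, a small GTPase of endosomes, was the reverse: its EPI sums held at most 0.237 CPM in MUT and at least 12.4 CPM in WT, and its ICM sums overlapped (3.43 to 45.1 CPM in MUT and 7.92 to 53.3 CPM in WT). Zfp775 had 1, 0, 2 and 1 counts in MUT EPI, against 103, 174 and 1098 counts in WT EPI.

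The leading genes of the EPI comparison differed in the other cells. Lcp1 was lower in MUT at both stages, with 28.2, 4.61, 19, 23 and 19.8 CPM in the MUT ICM sums, against 36.9, 77.8, 124, 85.0 and 115 CPM in the WT ICM sums. No MUT ICM sum reached the lowest WT ICM sum. In PrE it had 0.466, 0.0503, 4.88 and 8.21 CPM in MUT, against 530, 19.98 and 0.166 CPM in WT, where WT 1 holds the cell with trophectoderm markers and the groups overlapped. Prelid2 and Tmem144 were low in MUT EPI but not apart in the other cells. Prelid2 had 73.3, 86.1, 37.0 and 13.9 CPM in MUT PrE, against 59.5, 43.6 and 50.6 CPM in WT PrE (interaction log2 -5.14, SE 1.26, adjusted p = 1), and Tmem144 85.5, 146, 63.6 and 59.3 CPM in MUT PrE, against 61.2, 97.1 and 190 CPM in WT PrE (interaction log2 -4.63, SE 1.21, adjusted p = 1). Socs3 was low in MUT PrE too, at 9.97, 0, 3.20 and 3.15 CPM, against 256, 107 and 30.4 CPM in WT PrE. In ICM it overlapped, at 0.0327 to 4.18 CPM in MUT and 0.0092 to 21.3 CPM in WT.

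**Figure D5:**
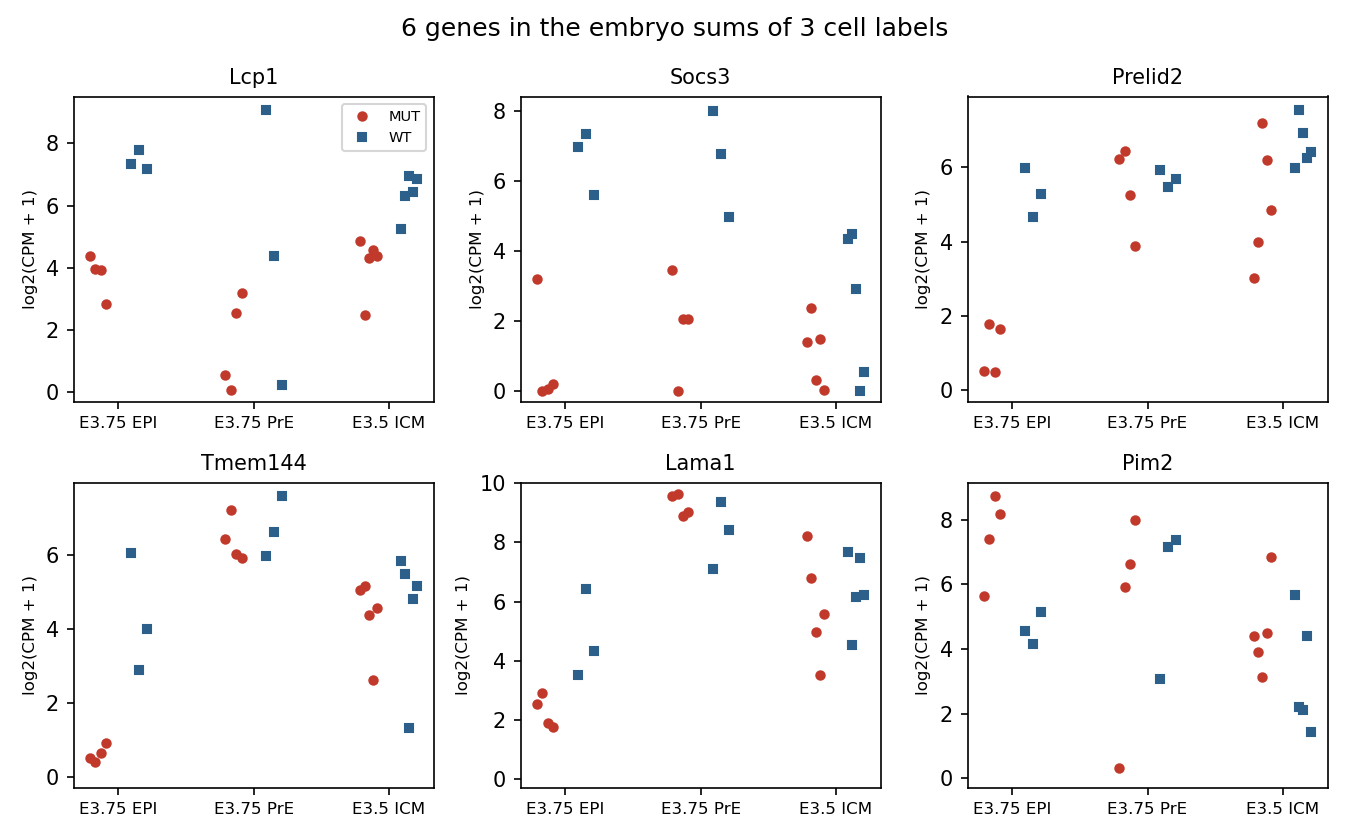
Levels, log2(CPM + 1), of 6 genes in the embryo sums of E3.75 EPI, E3.75 PrE and E3.5 ICM, with MUT embryos as red circles left of WT embryos as blue squares; CPM is scaled within each label, and EPI and PrE come from the same 7 embryos. Lcp1 and Socs3 are lower in MUT EPI and in another label as well, whereas Prelid2, Tmem144, Lama1 and Pim2 lie apart in EPI and overlap in PrE and ICM.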

How the data were processed

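Single-cell libraries of mouse embryos were compared over 4 MUT and 3 WT embryos. The authors deposited whole-number counts per gene for 171 cells, with no normalization. STAR, HTSeq and the mm10 build are named, per the submitters' processing notes. Their versions, the strand setting and the library kit are not given in the labels, so overlapping genes and near-identical copies may share reads. The 49671 rows were named by Ensembl identifiers, 49326 of which matched GENCODE vM21; the other rows held 0.0101% of counts and have no name here. The first number after the genotype in a title was taken as the embryo.

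Counts were summed per embryo over all cells, with no cell removed, no doublet search and no clustering. EPI sums held 10351004 to 28692221 counts in MUT and 46313435 to 85272083 in WT. The 7 sums were fitted with edgeR 4.0.16 in R 4.3.3 (quasi-likelihood test, robust, after TMM scaling and filterByExpr at a minimum count of 10), with Benjamini-Hochberg adjustment over all genes tested and a threshold of 0.05; the SE is the log2 fold change over the square root of F. Differences of genotype effects were interaction contrasts. Stat3 and 4 quality values were tested by exact permutation. DESeq2 1.42.0 and limma 3.58.1 served as alternatives. The fits were tested on simulated data. Of genes changed by a log2 of 1, 2 and 4, the EPI fit called 4%, 36% and 74%. The PrE interaction called 0%, 4% and 44%, and the ICM interaction 2%, 10% and 60%. A result of 0 genes called thus does not show that the groups were alike.

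Genes named were drawn from Stat3; the 12 autosomal genes in each direction with the smallest p, a mean of at least 20 CPM in 1 group and no overlap between embryos; 6 such X-linked genes; in each of 27 lists the 2 members of smallest p with at least 10 CPM; any member of the LIF/JAK/STAT and STAT3 target lists; the markers; and the 5 genes of smallest p in each interaction. The comparison of MUT 4 and 5 with WT 3 was chosen after seeing the data. Where a count of members lying apart was small, further members were named after their values were seen. Members and lists were chosen with earlier results of these data known. Replicates were told apart by embryo, and cells of 1 embryo are not replicates. Reads copied by PCR are not separate molecules, so floors cover counting error only. Same-numbered MUT and WT embryos are different embryos, and their deviations from the group means correlated at 0.20 and -0.04. The main fit thus did not use the numbers as pairs, and an alternative EPI fit did. Letters of the promoters came from RefSeq. A few genes counted in the lists are not reported here.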

Additional observations from a re-analysis of the deposited data

Results flagged for a closer look

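Among the 4 MUT embryos, 11 of the 90 named genes examined had 1 embryo whose gap to the next was larger against the group's range than Dixon's test at the 95% level allows; chance flags about 1 in 20 groups. WT groups of 3 were not examined in this way. MUT 2, the single cell, was the lowest embryo for Lifr (3.27 CPM; the others 84.7 to 107 CPM) and for Agtrap (120 CPM; the others 137 to 141 CPM) and the highest for Lif (46.0 CPM; the others 9.76 to 11.4 CPM). MUT 1 was the highest for Socs3 (8.21 CPM; the others 0 to 0.161 CPM), Kit (7.07 CPM; the others 0 to 0.129 CPM) and Aqp8 (20.1 CPM; the others 1.87 to 2.28 CPM) and the lowest for Slc2a3 (23.6 CPM; the others 72.5 to 78.2 CPM). MUT 5 was the highest for Wdr45 (111 CPM; the others 62.8 to 67.9 CPM), Bcl6 (0.613 CPM; the others 0) and Mfsd4b1 (0.0322 CPM, which is 1 count; the others 0). MUT 4 was the lowest for Socs1 (3.21 CPM; the others 10.3 to 12.7 CPM).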

How the results depend on the processing

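edgeR called 0 genes in every setting, DESeq2 187 (the cause was not tested). An alternative EPI fit took embryo number as a replicate block. That block joins MUT 1 with WT 1 and MUT 2 with WT 2, which are different embryos of letters B and C. Its values are thus not those of a real pairing. The 570 genes at an unadjusted p under 0.05 became 371 with embryo number as a replicate block, 308 with embryo sex in the model, 1382 with no low-count filter, 1515 without the MUT embryos of letter B (chosen after seeing the data), and 585 to 856 with each embryo left out in turn. Leaving out an embryo gave 468 to 647 genes that did not overlap upwards and 982 to 1222 downwards, as fewer embryos overlap less often. The Stat3 difference then lay between -164.6 and -121.8 CPM, with exact permutation p of 0.067 to 0.1, the lowest those sizes allow. The differences in quality values changed sign without 1 embryo: percent mitochondrial mRNA (0.052) to -0.011 without MUT 1 and -0.18 without WT 3 (range to 0.31), and the percent of counts in the 50 highest genes (0.96) to -0.55, -0.42 and -0.050 without MUT 1, MUT 2 and WT 3 (range to 2.805). The PrE interaction held 783 genes at an unadjusted p under 0.05 with no replicate block, against 443.

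Of 93 named genes, 79 kept their direction in every setting, and 46 were called by DESeq2 and 0 by any other. 22 of 27 list medians changed sign in at least 1 setting. The other 14 named genes changed sign as follows, in log2 fold change and with the cause not tested. With embryo number as the block, which joins different embryos, Zp3 was -2.07, Jak2 -6.73, Stat5a -1.45, Pim1 0.14 and Klf4 -0.50. With sex in the model Stat5a was -0.54 and Stat6 -0.14. With the letter in the model Jak1 was 0.081, Stat6 -0.99, Tdgf1 0.10 and Ppm1g 0.20. In limma's fit of embryo means of cells Socs1 was 0.14 and Klf4 -0.44. Without the MUT embryos of letter B Krt18 was -0.060, Krt8 -0.25, Stat6 -0.16, Socs2 0.052 and Klf4 -0.39. With each embryo left out in turn Klf4 ran from -0.81 (without MUT 2) to 0.62, and Il6st from -0.78 to 0.024 (without WT 1). The replicate block shifted the median of all genes to -0.30 and the missing filter to -0.16, against 0.04. MUT sums of 1 to 3 cells limit what can be seen of genes at a few counts.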
